A study of Homo sapiens with 24 samples.

Results

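Transcript levels of 8 kidney lineage transcription factors were examined in RNA-seq libraries of ACHN and HK-2 cells. The genes, chosen by name, were PAX2, PAX8, LHX1, HNF4A, HNF4G, WT1, EMX2 and POU3F3, 8 of the 60675 genes in the count files. ACHN is a human renal cancer cell line, labelled ccRCC (clear cell renal cell carcinoma) by the submitters, and HK-2 is an immortal line of epithelial cells from the proximal tubule of human kidney. Each line was studied in 4 groups of 3 libraries, 24 libraries in all. The shNC cells carried a control hairpin, the shKDM5C cells a hairpin against the histone H3K4 demethylase KDM5C and the shYY1 cells a hairpin against the transcription factor YY1. In the Dsh cells both were knocked down (double-knockdown). The cells were infected with lentivirus and selected with puromycin, and the double-knockdown cells were made by infecting YY1-depleted cells with a KDM5C hairpin vector that also carries GFP. The labels do not say whether the 3 libraries of a group came from separate cultures, so p-values measure the spread between these libraries, which may be technical.

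In the developing kidney, these factors act in an order. PAX2, PAX8 and LHX1 specify the nephric lineage, EMX2 and WT1 are needed for the ureteric bud and the metanephric mesenchyme to form a kidney, and POU3F3 (BRN1) shapes the loop of Henle and the distal nephron. HNF4A and HNF4G are nuclear receptors of mature tubule cells, and HNF4A drives proximal tubule genes. PAX8 stays on in adult tubules and in most renal carcinomas, where pathologists use it as a lineage marker.

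On GRCh38, PAX2 (ENSG00000075891) lies on chromosome 10 from 100735603 to 100829941 and EMX2 (ENSG00000170370) on the same chromosome from 117542444 to 117549546, both on the plus strand. PAX8 (ENSG00000125618) lies on chromosome 2 from 113215997 to 113278950 on the minus strand. POU3F3 (ENSG00000198914), a gene with a single exon in this annotation, lies on chromosome 2 from 104855511 to 104860471 on the plus strand. LHX1 (ENSG00000273706) lies on chromosome 17 from 36936785 to 36944612, WT1 (ENSG00000184937) on chromosome 11 from 32387775 to 32435630 and HNF4A (ENSG00000101076) on chromosome 20 from 44355700 to 44434596. HNF4G is ENSG00000164749.

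Promoter sequences from RefSeq (GRCh38.p14; 250 bases before and 50 after a transcription start) were found for 6 of the 8 genes, with 11 promoters in all. There was no entry for LHX1 and HNF4G. Promoters are shown for POU3F3 and PAX2, the genes with promoters whose log2 fold changes exceeded 1.5 in a test, and for PAX8, the most abundant factor, with each CCAAT in capitals, a 5-base element that was searched for after the sequences had been read. The POU3F3 promoter (chr2:104853865-104854164, plus strand) starts transcription 1396 bases upstream of the annotated start used for counting. The PAX8 promoter (chr2:113278872-113279171, minus strand) 29 bases downstream of it, and the first PAX2 promoter (chr10:100735146-100735445, plus strand) 207 bases upstream of it.
POU3F3: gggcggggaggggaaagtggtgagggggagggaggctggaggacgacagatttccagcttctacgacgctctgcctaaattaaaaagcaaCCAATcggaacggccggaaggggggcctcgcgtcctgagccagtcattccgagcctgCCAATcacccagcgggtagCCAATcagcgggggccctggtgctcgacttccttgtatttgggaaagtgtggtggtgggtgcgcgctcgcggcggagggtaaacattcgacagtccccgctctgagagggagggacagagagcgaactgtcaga
PAX8: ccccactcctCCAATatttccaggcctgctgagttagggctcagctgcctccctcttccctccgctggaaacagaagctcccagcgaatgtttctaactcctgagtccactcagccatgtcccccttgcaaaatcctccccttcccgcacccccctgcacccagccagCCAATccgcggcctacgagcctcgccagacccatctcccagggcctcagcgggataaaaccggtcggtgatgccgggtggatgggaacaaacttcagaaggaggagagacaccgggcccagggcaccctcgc
PAX2: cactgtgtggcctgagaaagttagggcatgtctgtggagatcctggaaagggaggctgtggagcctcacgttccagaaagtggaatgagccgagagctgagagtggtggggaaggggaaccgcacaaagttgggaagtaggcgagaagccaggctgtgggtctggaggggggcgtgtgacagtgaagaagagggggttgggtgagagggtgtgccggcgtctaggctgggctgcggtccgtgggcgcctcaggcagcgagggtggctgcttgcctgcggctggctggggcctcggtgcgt
POU3F3 held 3 CCAAT elements and PAX8 held 2, whereas PAX2 held 0 in both of its promoters. Of all 35116 promoters in the table, 34.6% held at least 1 CCAAT on either strand (ATTGG on the other) and 3.26% held at least 3. The YY1 motif GCCATNTT, searched on both strands (AANATGGC on the other), matched in none of the 11 promoters of these genes and in 6.58% of all promoters. CpG dinucleotides numbered 21 in the POU3F3 promoter, 14 in the first PAX2 promoter and 13 in the PAX8 promoter, beside a median of 14 over all promoters.

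Between 15926561 and 24272298 read pairs per library were counted on genes. Counts were scaled to CPM (counts per 1000000) on library sizes adjusted by edgeR's TMM method over all 24 libraries, so 1 read pair corresponds to between 0.0406 and 0.0684 CPM. Values are means ± SD of 3 libraries. These are bulk samples, so fewer cells that express a gene and less RNA per cell cannot be told apart. KDM5C, the first target, was at 70.3 ± 0.595 CPM in ACHN shNC cells and at 42.8 ± 1.34 CPM in shKDM5C and 40.4 ± 0.634 CPM in double-knockdown cells. In HK-2 cells it was at 192 ± 2.71 CPM, 56.9 ± 18.2 CPM and 68.0 ± 3.15 CPM in the same order. YY1 fell from 138 ± 3.95 CPM to 76.4 ± 3.44 CPM in shYY1 and 96.6 ± 7.02 CPM in double-knockdown ACHN cells, and from 209 ± 6.95 CPM to 64.1 ± 3.18 CPM and 74.0 ± 1.55 CPM in HK-2 cells. KDM5C itself rose in shYY1 cells, to 90.2 ± 2.63 CPM in ACHN and 244 ± 14.1 CPM in HK-2 cells. Replicate 1 of HK-2 shKDM5C stood apart from replicates 2 and 3: the chi-square statistic of its counts per degree of freedom was 138 against replicate 2 and 132 against replicate 3, while replicates 2 and 3 gave 3.12, and its KDM5C level was 35.8 CPM against 67.9 and 66.9 CPM. Calls and fold changes that rest on that group are given with and without this library.

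Of the markers of each cell type, the proximal tubule transporters SLC22A6 and SLC22A8 had 0 counts in shNC cells of both lines and LRP2 was at 0.0179 CPM or 0.0184 CPM, while GGT1 was at 70.3 ± 1.21 CPM in ACHN and 202 ± 10.5 CPM in HK-2 shNC cells. CA9, a hypoxia-induced carbonic anhydrase that marks clear cell renal carcinoma, was at 0.124 ± 0.032 CPM in ACHN shNC cells. All 6 epithelial markers were above 1 CPM in shNC cells of both lines. In ACHN cells their summed level was 2350 to 2420 CPM in shNC, 3000 to 3150 CPM in shKDM5C, 2850 to 2900 CPM in shYY1 and 1220 to 1390 CPM in double-knockdown cells. In HK-2 cells it was 2590 to 2700 CPM, 2090 to 2610 CPM, 1750 to 1860 CPM and 1090 to 1210 CPM in the same order. The sum followed mainly the keratins, and CDH1 (E-cadherin) was at 47.7 ± 2.36 CPM in ACHN shNC, 5.62 ± 1.17 CPM in shKDM5C and 5.26 ± 1.22 CPM in double-knockdown cells. The summed level of 5 fibroblast markers in ACHN cells, nearly all of it COL1A1, was 550 to 602 CPM in shNC, 47.8 to 52.4 CPM in shKDM5C, 155 to 161 CPM in shYY1 and 128 to 144 CPM in double-knockdown cells. In HK-2 cells it was 40.7 to 42.9 CPM, 29.4 to 37.1 CPM, 54.7 to 62.2 CPM and 92.7 to 102 CPM in the same order. There LUM was at 10.5 ± 1.42 CPM in shNC and 60.9 ± 4.01 CPM in double-knockdown cells. DCN was at 0.145 ± 0.17 and 7.22 ± 0.62 CPM, and COL1A1 at 31.0 ± 1.56 and 28.3 ± 0.767 CPM. The 4 mesothelial markers summed to 150 to 158 CPM in ACHN shNC and 217 to 238 CPM in ACHN double-knockdown cells, and 133 to 144 CPM and 167 to 189 CPM in HK-2 cells. The higher sum was LRRN4 alone (58.0 ± 0.908 and 221 ± 11.1 CPM in ACHN, 124 ± 6.74 and 172 ± 10.6 CPM in HK-2 cells). In ACHN cells the other mesothelial markers were lower, with MSLN at 16.3 ± 1.1 and 1.12 ± 0.255 CPM, UPK3B at 75.5 ± 4.08 and 6.04 ± 0.416 CPM and CALB2 at 3.57 ± 0.775 and 0.5 ± 0.148 CPM. In HK-2 cells MSLN and UPK3B were lower as well (2.83 ± 0.105 and 1.18 ± 0.414 CPM; 9.96 ± 0.74 and 2.86 ± 0.423 CPM). The 4 endothelial markers summed to at most 1.77 CPM and the 4 leukocyte markers to at most 7.58 CPM in any library, and KDR had 0 counts in all of them. The leukocyte sum in HK-2 cells was mainly CD14, at 6.78 ± 0.533 CPM in shNC cells, and in ACHN cells it was at most 0.814 CPM. The 4 podocyte markers summed to 457 to 463 CPM in ACHN and 81.3 to 86.5 CPM in HK-2 shNC cells and to 289 to 318 CPM and 59.4 to 63.2 CPM in double-knockdown cells. The 5 markers of clear cell carcinoma summed to 756 to 783 CPM in ACHN shNC and 982 to 1020 CPM in ACHN double-knockdown cells. VIM alone was higher (676 ± 13.4 and 937 ± 20.5 CPM), and the means of CA9, NDUFA4L2, EGLN3 and PLIN2 were lower (PLIN2 at 86.4 ± 2.83 and 64.9 ± 0.879 CPM, CA9 at 0 counts in double-knockdown cells). The 10 markers of the proximal tubule summed to 73.3 to 76.0 CPM and 121 to 135 CPM, nearly all of it GGT1 (70.3 ± 1.21 and 123 ± 8.14 CPM). The part of these shifts in the values below was not tested.

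To compare genes with one another, levels were divided by exon length. In shNC cells PAX8 was the most abundant of the 8 factors in both lines, at 73.1 ± 1.01 CPM per kb in ACHN and 34.3 ± 1.12 CPM per kb in HK-2 cells. LHX1 followed in HK-2 cells at 22.1 ± 0.961 CPM per kb and was at 4.74 ± 0.278 CPM per kb in ACHN cells. In ACHN shNC cells LHX1, PAX2 (4.48 ± 0.147 CPM per kb) and POU3F3 (4.23 ± 0.169 CPM per kb) were close together. HNF4G was at 1.85 ± 0.0343 CPM per kb in ACHN and 1.59 ± 0.187 CPM per kb in HK-2 cells. WT1 was at 0.0818 ± 0.0268 CPM per kb in ACHN cells, and HNF4A and EMX2 were at or near 0 in both lines.

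**Figure D1:**
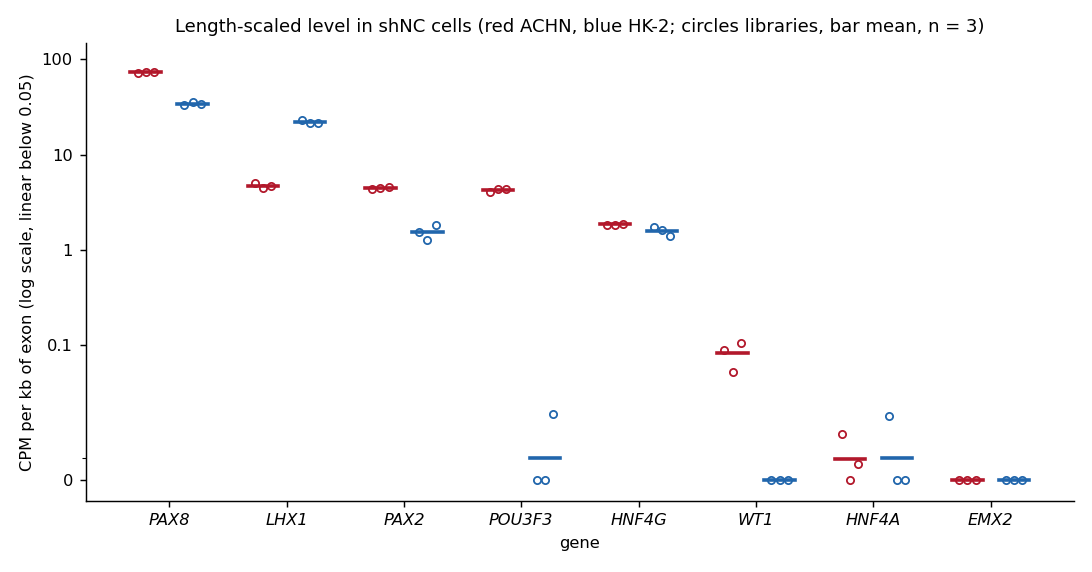
Length-scaled level (CPM per kb of exon, log axis that is linear below 0.05) of the 8 factors in the 3 shNC libraries of ACHN (red) and HK-2 (blue); circles are libraries and bars are means. PAX8 lies highest in both lines, LHX1 is higher in HK-2, POU3F3 is near 0 in HK-2, and HNF4A and EMX2 lie at or near 0.

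The control cells of the lines were compared first. A gene was called where edgeR gave an adjusted p-value below 0.05, and 4 of the 5 factors tested were called between ACHN and HK-2 shNC cells, where 76.6% of the 16988 genes tested also differed. POU3F3, 1 of the 4, passed the count filter through its ACHN level only, so its call says no more than the filter. PAX8 was 2.14-fold higher in ACHN than in HK-2 cells (541 ± 7.48 and 254 ± 8.29 CPM; log2 difference 1.10, SE 0.0331, adjusted p = 1.81e-21) and PAX2 was 2.88-fold higher (27.9 ± 0.915 and 9.71 ± 1.73 CPM; log2 difference 1.53, SE 0.105, adjusted p = 2.4e-13). LHX1 was 4.64-fold lower in ACHN cells, at 23.1 ± 1.36 CPM beside 108 ± 4.69 CPM (log2 difference -2.22, SE 0.0587, adjusted p = 8.83e-23). POU3F3 had 385, 400 and 399 counts in the ACHN shNC libraries and 0, 0 and 3 in the HK-2 shNC libraries, a ratio of 388 with an exact 95% interval for counting error of 133 to 1890. HNF4G differed by 0.23 on the log2 scale (SE 0.132, 95% interval -0.03 to 0.49, adjusted p = 0.112).

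**Figure D2:**
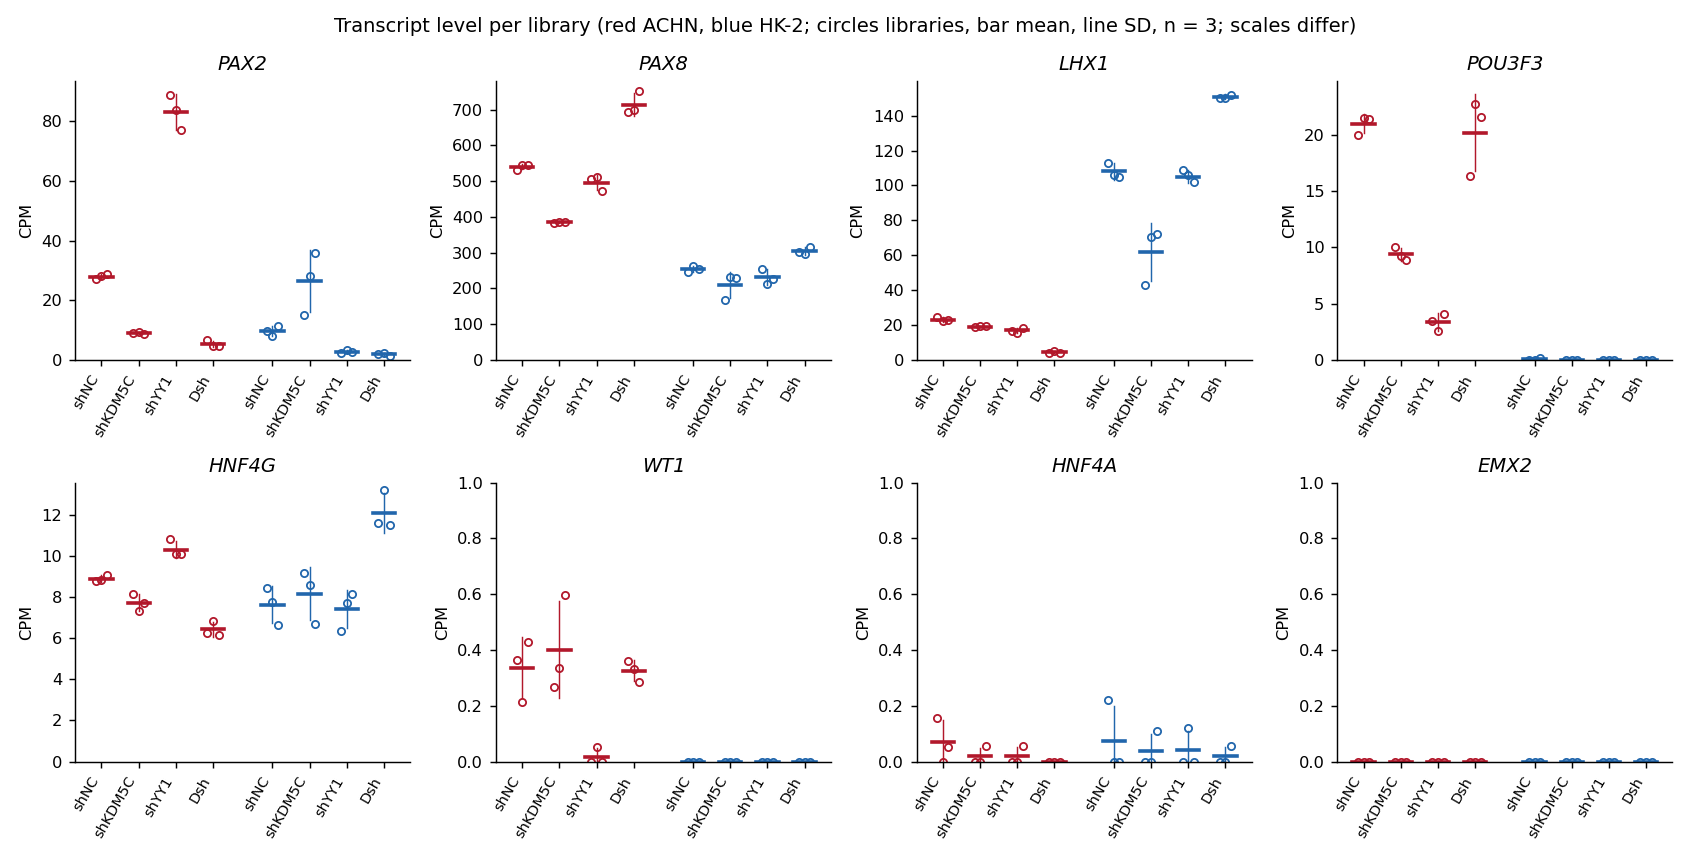
Level in CPM of each factor in all 24 libraries, by group, with ACHN in red and HK-2 in blue; circles are libraries, horizontal bars are means, vertical lines are SDs (n = 3), and each panel has its own linear scale from 0. PAX2 peaks in ACHN shYY1 cells, POU3F3 is lowest among ACHN groups in shYY1 cells and back at the shNC level in double-knockdown cells, and LHX1 is lowest in ACHN double-knockdown cells and highest in HK-2 double-knockdown cells.

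PAX2, a paired box factor of the nephric lineage, had log2 fold changes of opposite sign in the 2 lines with each single knockdown. In ACHN cells its level was 27.0, 28.0 and 28.8 CPM in the shNC libraries and 9.07, 9.21 and 8.79 CPM in shKDM5C cells. The shYY1 libraries were at 89.0, 83.7 and 77.0 CPM and the double-knockdown libraries at 6.56, 4.69 and 4.67 CPM. None of these 4 groups overlapped. PAX2 was thus downregulated 3.13-fold by KDM5C knockdown (log2 fold change -1.64, SE 0.0804, adjusted p = 4.79e-15). It was upregulated 2.93-fold by YY1 knockdown (1.55, SE 0.0553, adjusted p = 3.47e-22). It was downregulated 5.27-fold in double-knockdown cells (-2.40, SE 0.116, adjusted p = 2.2e-12). The double-knockdown value was far below the sum of the single knockdowns on the log2 scale (interaction -2.33, SE 0.139, adjusted p = 2.82e-13). Among the ACHN groups, PAX2 was thus highest in shYY1 and lowest in double-knockdown cells. These 2 groups differed in YY1 as well as in KDM5C. YY1 was at 76.4 ± 3.44 CPM in shYY1 and 96.6 ± 7.02 CPM in double-knockdown cells. KDM5C was at 90.2 ± 2.63 CPM and 40.4 ± 0.634 CPM in the same order, beside 70.3 ± 0.595 CPM in shNC cells. The part of each in the PAX2 levels was not tested.

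In HK-2 cells PAX2 was at 9.70, 7.99 and 11.5 CPM in shNC and 15.2, 28.2 and 36.0 CPM in shKDM5C cells. In shYY1 cells the values were 2.26, 3.21 and 2.77 CPM and those of the double knockdown 2.00, 2.22 and 1.25 CPM. The shKDM5C libraries were all above the shNC libraries and spread more than 2-fold among themselves, and the shYY1 and double-knockdown libraries were all below the shNC libraries and next to each other. The increase in shKDM5C cells did not pass the threshold (log2 fold change 1.46, SE 0.307, 95% interval 0.85 to 2.06, adjusted p = 0.0855), whereas without replicate 1 of that group it did (1.72, adjusted p = 5.09e-10). PAX2 was downregulated 3.54-fold by YY1 knockdown (-1.82, SE 0.191, adjusted p = 1.82e-07) and 5.30-fold in double-knockdown cells (-2.41, SE 0.217, adjusted p = 7.87e-11). The interaction was -2.04 (SE 0.436, adjusted p = 0.0112) and -2.29 without replicate 1 of shKDM5C (adjusted p = 3.8e-07).

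Tested directly, the PAX2 response to KDM5C knockdown differed between the lines by -3.10 on the log2 scale (ACHN minus HK-2; SE 0.342, adjusted p = 0.00017; -3.35 without replicate 1 of HK-2 shKDM5C), and the response to YY1 knockdown differed by 3.39 (SE 0.169, adjusted p = 1.34e-15). The response to the double knockdown did not pass the test of a difference (0.03, SE 0.233, 95% interval -0.43 to 0.49, adjusted p = 0.949). PAX2 thus fell in both lines when both regulators were depleted, while its response to each single knockdown differed between them.

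PAX8, the paired box factor that persists in adult tubules, changed less in relative terms, but from a much higher level. In ACHN cells it was at 532, 544 and 546 CPM in shNC and 382, 387 and 387 CPM in shKDM5C cells. Those of shYY1 were 506, 511 and 472 CPM and those of the double knockdown 693, 698 and 751 CPM. The 4 groups did not overlap. PAX8 fell 1.42-fold with KDM5C knockdown (log2 fold change -0.50, SE 0.0283, adjusted p = 7.21e-14) and 1.11-fold with YY1 knockdown (-0.15, SE 0.0289, adjusted p = 7.14e-05). It rose 1.32-fold in double-knockdown cells (0.40, SE 0.0431, adjusted p = 1.56e-07). The interaction was 1.03 (SE 0.054, adjusted p = 2.42e-14).

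In HK-2 cells PAX8 was at 245, 262 and 255 CPM in shNC and 166, 231 and 229 CPM in shKDM5C cells. Its shYY1 values were 255, 213 and 227 CPM and those of the double knockdown 302, 296 and 317 CPM. The double-knockdown libraries were above all others, and the shYY1 range overlapped the shNC range. PAX8 rose 1.21-fold in double-knockdown cells (log2 fold change 0.27, SE 0.0434, adjusted p = 3.92e-06). The fold change was -0.27 in shKDM5C (SE 0.139, 95% interval -0.54 to -0.000605, adjusted p = 0.388) and -0.13 in shYY1 cells (SE 0.0568, 95% interval -0.24 to -0.02, adjusted p = 0.0846). Without replicate 1 the shKDM5C value was -0.15 (adjusted p = 0.0138), and without replicate 1 of shYY1 the shYY1 value was -0.21 (adjusted p = 0.00421). The HK-2 interaction of 0.675 (SE 0.16, adjusted p = 0.0198) was 0.56 without replicate 1 of shKDM5C (adjusted p = 1.81e-06) and lost its call when replicate 2 or 3 of shNC, replicate 2 or 3 of shYY1, or replicate 1 or 3 of the double knockdown was left out (0.62 to 0.68, adjusted p between 0.0529 and 0.0634). The rise in double-knockdown cells was larger in ACHN than in HK-2 cells by 0.15 on the log2 scale (SE 0.0606, adjusted p = 0.0432), a call that was lost when any 1 of 8 of the 12 libraries was left out (0.103 to 0.142).

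Counts assigned to antisense genes of the PAX8 locus were also higher in ACHN double-knockdown cells, as PAX8 was. PAX8-AS1 (ENSG00000189223, chromosome 2 from 113211522 to 113276581) runs antisense to PAX8 and shares 685 exon bases with it, 9.26% of the PAX8 exons, and ENSG00000274877 (113237595 to 113240825, plus strand) lies inside the PAX8 span without sharing exon bases. Strand was not used in counting, so reads of PAX8 and these antisense genes cannot be told apart where they overlap. Reads of unspliced PAX8 RNA that fall on exons of these genes are counted to them as well. The part of such reads was not tested. In ACHN cells PAX8-AS1 was at 13.8, 13.7 and 12.3 CPM in shNC and 35.5, 41.7 and 46.3 CPM in double-knockdown cells (log2 fold change 1.64, SE 0.0967, adjusted p = 3.91e-11), a larger relative rise than that of PAX8 itself, and it fell in shKDM5C cells (-0.45, SE 0.112, adjusted p = 0.0012). In ACHN shYY1 cells, where PAX8 fell, its log2 fold change was -0.08 (SE 0.0952, adjusted p = 0.505). ENSG00000274877 rose by 1.23 (SE 0.0759, adjusted p = 7.78e-11) in double-knockdown cells and fell in ACHN shKDM5C (-1.07, SE 0.0944, adjusted p = 4.52e-10) and shYY1 cells (-0.495, SE 0.0848, adjusted p = 8.9e-06). Its interaction was 2.76 (SE 0.118, adjusted p = 3.54e-16). In HK-2 double-knockdown cells ENSG00000274877 rose by 0.47 (SE 0.138, adjusted p = 0.00537), and PAX8-AS1 had a log2 fold change of 0.175 (SE 0.114, adjusted p = 0.213). In HK-2 shYY1 cells, where PAX8 was not called, PAX8-AS1 (-0.74, SE 0.135, adjusted p = 0.000214) and ENSG00000274877 (-0.79, SE 0.177, adjusted p = 0.00157) fell. PSD4, which ends 6601 bases from PAX8, fell in double-knockdown cells of both lines (-0.95 in ACHN, SE 0.102, adjusted p = 1.68e-07; -1.20 in HK-2, SE 0.32, adjusted p = 0.00228).

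LHX1, a LIM homeobox factor of the intermediate mesoderm and early nephron, responded in opposite directions to the double knockdown in the 2 lines. In ACHN cells its level was 24.6, 22.0 and 22.7 CPM in shNC and 18.7, 19.2 and 19.2 CPM in shKDM5C cells. Levels in shYY1 cells were 16.8, 15.6 and 18.3 CPM and those of the double knockdown 3.84, 4.80 and 4.10 CPM. The 4 groups did not overlap, and the double-knockdown libraries were far below the rest. The single knockdowns lowered LHX1 1.23-fold (shKDM5C, log2 fold change -0.30, SE 0.0732, adjusted p = 0.00126) and 1.39-fold (shYY1, -0.48, SE 0.0755, adjusted p = 2.49e-06). The double knockdown lowered it 5.45-fold (-2.45, SE 0.113, adjusted p = 1.14e-12), beyond the sum of the singles (interaction -1.70, SE 0.135, adjusted p = 7.08e-11).

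In HK-2 cells LHX1 was at 113, 106 and 105 CPM in shNC and 42.7, 70.6 and 72.2 CPM in shKDM5C cells. The shYY1 libraries were at 109, 106 and 102 CPM and the double-knockdown libraries at 150, 150 and 152 CPM. The shKDM5C libraries were below all others of the line and the double-knockdown libraries above them. LHX1 rose 1.40-fold in double-knockdown cells (log2 fold change 0.49, SE 0.0492, adjusted p = 8.85e-10). In shKDM5C cells the fold change was -0.795 (SE 0.192, 95% interval -1.17 to -0.42, adjusted p = 0.129), and without replicate 1 it was -0.60 and passed the threshold (adjusted p = 1.91e-08). In shYY1 cells it was -0.04 (SE 0.0556, 95% interval -0.15 to 0.07, adjusted p = 0.679). The interaction was 1.31 (SE 0.207, adjusted p = 0.00187) and 1.13 without replicate 1 of shKDM5C (adjusted p = 3.15e-12).

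The LHX1 response to the double knockdown differed between the lines by -2.92 on the log2 scale (ACHN minus HK-2; SE 0.106, adjusted p = 5.68e-19), and the response to YY1 knockdown differed by -0.43 (SE 0.0905, adjusted p = 0.000434). The response to KDM5C knockdown differed by 0.51 (SE 0.219, 95% interval 0.08 to 0.94, adjusted p = 0.156) and, without replicate 1 of HK-2 shKDM5C, by 0.31 (adjusted p = 0.00677).

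LHX1-DT (ENSG00000277268, chromosome 17 from 36861674 to 36936661, minus strand) starts 124 bases from LHX1 and is transcribed away from it. In ACHN cells it was at 10.3, 12.7 and 11.7 CPM in shNC and 1.64, 1.21 and 1.54 CPM in double-knockdown cells (log2 fold change -2.96, SE 0.166, adjusted p = 1.98e-11), and it also fell in shKDM5C (-1.02, SE 0.12, adjusted p = 6.91e-08) and shYY1 cells (-0.57, SE 0.111, adjusted p = 5.04e-05). In HK-2 cells its log2 fold change in shKDM5C cells was -0.998 (SE 0.218, adjusted p = 0.0949; -0.81 with adjusted p = 5.72e-05 without replicate 1), it rose in shYY1 cells (0.50, SE 0.109, adjusted p = 0.00119), and it was at 0.03 in double-knockdown cells (SE 0.11, adjusted p = 0.864). ENSG00000276707, which lies antisense within LHX1 and shares 367 exon bases with it, was at 0.458 ± 0.258 CPM in ACHN and 2.89 ± 0.865 CPM in HK-2 shNC cells. AATF, 4263 bases beyond LHX1, fell by 0.40 on the log2 scale in ACHN double-knockdown cells (SE 0.0599, adjusted p = 9.85e-06) and by 0.16 in ACHN shYY1 cells (SE 0.0409, adjusted p = 0.00138). It rose in HK-2 shYY1 cells (0.27, SE 0.058, adjusted p = 0.00127).

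**Figure D3:**
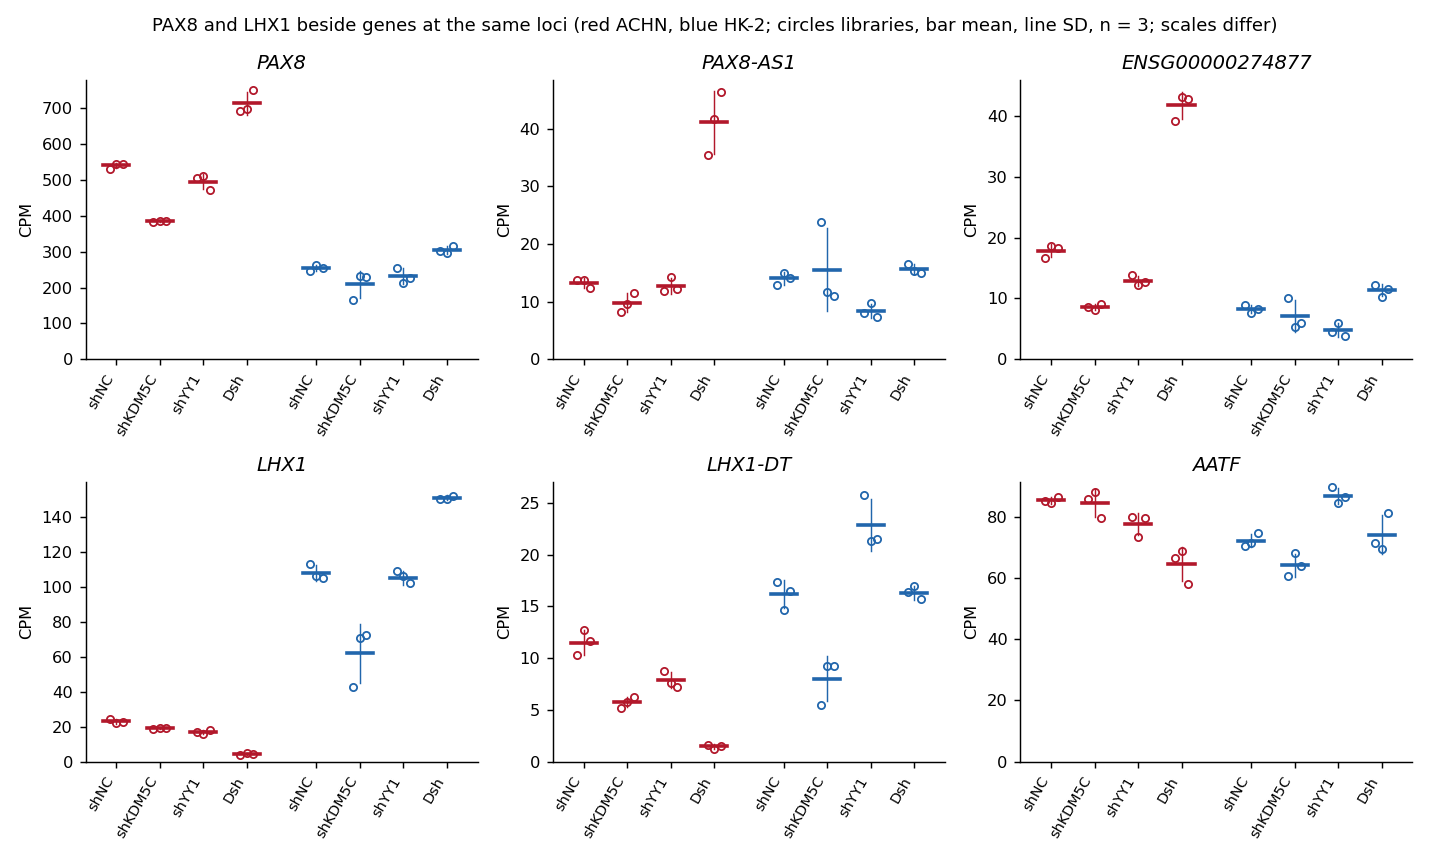
Levels in CPM of PAX8 and LHX1 and of genes at the same loci in all 24 libraries (ACHN red, HK-2 blue; circles are libraries, bars means, vertical lines SDs, n = 3; each panel has its own linear scale from 0). PAX8-AS1 and ENSG00000274877 are highest in ACHN double-knockdown cells, as PAX8 is, and LHX1-DT is lowest there, as LHX1 is, while in HK-2 cells LHX1-DT is highest in shYY1 cells.

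POU3F3, a POU factor of the loop of Henle and distal nephron, was expressed in ACHN cells and was near 0 in HK-2 cells. In ACHN cells its level was 20.0, 21.5 and 21.4 CPM in shNC and 10.0, 9.21 and 8.90 CPM in shKDM5C cells. In shYY1 cells the values were 3.45, 2.52 and 4.06 CPM and those of the double knockdown 16.3, 22.7 and 21.6 CPM. Both single-knockdown groups were below all shNC libraries and did not overlap each other, while the double-knockdown libraries spanned the shNC range. POU3F3 was downregulated 2.26-fold by KDM5C knockdown (log2 fold change -1.17, SE 0.0879, adjusted p = 1.98e-11) and 6.38-fold by YY1 knockdown (-2.67, SE 0.118, adjusted p = 1.5e-19). In double-knockdown cells the fold change was -0.05 (SE 0.104, 95% interval -0.26 to 0.15, adjusted p = 0.683), and it was 0.08 without replicate 1 of that group. The interaction was 3.77 (SE 0.183, adjusted p = 5.49e-15), the largest in size of the 5 factors tested in ACHN cells. In the HK-2 libraries POU3F3 had 3 counts in replicate 3 of shNC and 0 in the other 11, where 3 counts correspond to at most 0.205 CPM, so no change could be measured there.

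The genes next to POU3F3 were expressed at low levels in ACHN cells. PANTR1 (ENSG00000233639, chromosome 2 from 104807572 to 104853183, minus strand) was at 0.728, 0.698 and 1.13 CPM in shNC and 0.159, 0.268 and 0.167 CPM in shYY1 cells (log2 fold change -2.09, SE 0.47, adjusted p = 0.000363). In double-knockdown cells it was at 0.564, 0.551 and 0.487 CPM (-0.67, SE 0.387, adjusted p = 0.141), and its interaction was 2.36 (SE 0.636, adjusted p = 0.00269). ENSG00000269707, whose span covers POU3F3 on the same strand without shared exon bases, fell in shYY1 (-1.90, SE 0.432, adjusted p = 0.000411) and in double-knockdown cells (-1.96, SE 0.493, adjusted p = 0.00194), unlike POU3F3. Both genes had 0 counts in all 12 HK-2 libraries.

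HNF4G, a nuclear receptor close to HNF4A, was expressed at low and similar levels in both lines. In ACHN cells it was at 8.79, 8.81 and 9.08 CPM in shNC and 8.16, 7.31 and 7.70 CPM in shKDM5C cells. Those of shYY1 were 10.8, 10.1 and 10.1 CPM and those of the double knockdown 6.25, 6.84 and 6.17 CPM. In HK-2 cells the values were 8.43, 7.77 and 6.65 CPM, 9.17, 8.58 and 6.70 CPM, 6.36, 7.72 and 8.13 CPM and 11.6, 13.2 and 11.5 CPM in the same order. The double-knockdown libraries were the lowest of the ACHN and the highest of the HK-2 libraries. HNF4G fell 1.38-fold in ACHN double-knockdown cells (log2 fold change -0.47, SE 0.121, adjusted p = 0.00234). It rose 1.60-fold in HK-2 double-knockdown cells (0.68, SE 0.141, adjusted p = 0.000165). The difference between the lines was -1.13 (SE 0.187, adjusted p = 1.07e-05). The single knockdowns did not pass the threshold. The log2 fold change was -0.22 in ACHN shKDM5C (SE 0.111, 95% interval -0.43 to 0.00145, adjusted p = 0.1) and 0.20 in ACHN shYY1 cells (SE 0.103, adjusted p = 0.118). It was 0.12 in HK-2 shKDM5C (SE 0.2, adjusted p = 0.772; 0.00216 without replicate 1, adjusted p = 0.994) and -0.04 in HK-2 shYY1 cells (SE 0.157, adjusted p = 0.889). The interaction passed in ACHN (-0.47, SE 0.152, adjusted p = 0.0101) and not in HK-2 cells (0.60, SE 0.238, adjusted p = 0.137; 0.72 with adjusted p = 0.0143 without replicate 1 of shKDM5C).

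WT1, a zinc finger factor of the metanephric mesenchyme and podocytes, was detected at a few read pairs per ACHN library. It had 7, 4 and 8 counts in shNC, 5, 6 and 11 in shKDM5C, 0, 1 and 0 in shYY1 and 7, 6 and 7 in double-knockdown cells, and 0 in all 12 HK-2 libraries. The shYY1 libraries were below all other ACHN libraries. WT1 did not reach the count filter of the tests. The ratio of shNC to shYY1 counts, scaled to library size, was 18.7 with an exact 95% interval for counting error of 2.97 to 775, and without the filter the difference had an adjusted p of 0.00326 (edgeR). The ratio of double-knockdown to shYY1 counts was 17.8 (2.85 to 738). For ACHN shNC against HK-2 shNC cells the WT1 ratio was 6.23 with a floor of 3 counts set for the HK-2 group. The exact 95% lower limit of this ratio for counting error was 4.59.

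HNF4A, the nuclear receptor of the mature proximal tubule, had 15 counts over all 24 libraries, at most 4 in a library, and was above 0 in 8 of them, with no group in which all 3 libraries had counts. EMX2, a homeobox factor of the ureteric bud, had 0 counts in all 24 libraries. With 3 counts as the limit that a count of 0 allows, its level in a library was below 0.122 to 0.205 CPM. The antisense genes of these loci, HNF4A-AS1 with 0 counts and EMX2OS with 2 counts over all libraries, were also at or near 0.

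**Figure D4:**
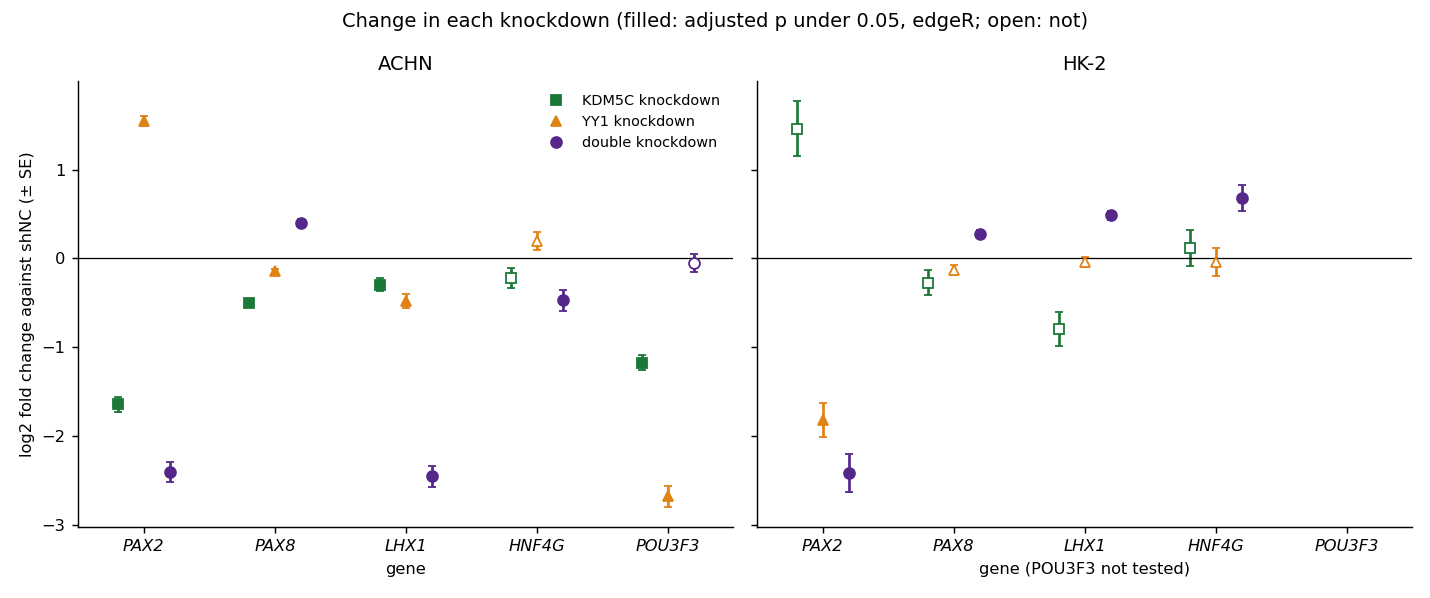
Log2 fold change against shNC (y axis, with SE) of the 5 factors that passed the count filter, in ACHN (left) and HK-2 cells (right); squares are KDM5C knockdown, triangles YY1 knockdown and circles double knockdown, filled where the adjusted p-value is under 0.05 (edgeR). PAX2 is lower in the double knockdown of both lines, with single knockdowns on opposite sides of 0 in the 2 lines, and LHX1 and HNF4G are lower in ACHN and higher in HK-2 double-knockdown cells.

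Counted by comparison, 5 of the 8 factors were tested in ACHN and 4 in HK-2 cells, since POU3F3 was below the filter in HK-2 and HNF4A, WT1 and EMX2 in both lines. In ACHN shKDM5C cells 4 factors were called lower and 0 higher, where 27.7% of all genes tested were called lower and 28.9% higher. In ACHN shYY1 cells 3 were lower and 1 higher (24.5% and 24.2% of all genes), and in ACHN double-knockdown cells 3 were lower and 1 higher (32.0% and 30.7%). In HK-2 shYY1 cells 1 was lower (14.7% of all genes lower, 14.3% higher), and in HK-2 double-knockdown cells 1 was lower and 3 were higher (24.3% and 25.5%). In HK-2 shKDM5C cells 0 of 4 were called by edgeR, where 0.656% of all genes were lower and 0.668% higher. An unadjusted p-value under 0.05 was found for 2 factors. DESeq2 called 2 (PAX2 higher and LHX1 lower), beside 284 genes lower and 321 higher of 15549. Without replicate 1 of that group edgeR called 3 (PAX8 lower as well), beside 1808 genes lower and 1910 higher of 16642.

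Fewer changes exceeded 1.5 on the log2 scale. In ACHN cells these were PAX2 with KDM5C knockdown (1 of 5 factors, beside 3.34% of all genes), PAX2 and POU3F3 with YY1 knockdown (2 of 5, beside 3.13%) and PAX2 and LHX1 in the double knockdown (2 of 5, beside 8.42%). In HK-2 cells PAX2 alone passed it with YY1 knockdown (1 of 4, beside 1.29%) and in the double knockdown (1 of 4, beside 4.3%). With KDM5C knockdown 0 of 4 passed it (beside 0.501%). Without replicate 1 of HK-2 shKDM5C PAX2 did, beside 230 of 16642 genes. The median absolute log2 fold change of the tested factors was 0.50, 0.48 and 0.47 in shKDM5C, shYY1 and double-knockdown ACHN cells, beside 0.27, 0.22 and 0.39 over all genes tested, and 0.53, 0.09 and 0.58 in HK-2 cells, beside 0.28, 0.20 and 0.31.

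The interaction asked whether the double knockdown differed from the sum of the single knockdowns on the log2 scale. The labels name no control for the added infection with the GFP vector, so its effect and that of the joint knockdown cannot be told apart. In ACHN cells the targets had interactions too, of -0.424 for KDM5C (SE 0.0669, adjusted p = 6.48e-06) and 0.279 for YY1 (SE 0.0689, adjusted p = 0.00125). All 5 factors tested passed the interaction test in ACHN cells, where 55.6% of all genes did, and 3 of 4 in HK-2 cells (PAX2, PAX8 and LHX1), where 9.61% did. Without replicate 1 of HK-2 shKDM5C 4 of 4 did, beside 2415 genes lower and 2650 higher of 17642. PAX2 was below the sum in both lines and PAX8 above it in both. LHX1 was below the sum in ACHN and above it in HK-2 cells. The responses to the knockdowns were also compared between lines. With KDM5C knockdown 1 of 5 factors (PAX2) differed (11.9% of all genes). Without replicate 1 of HK-2 shKDM5C 3 of 5 did, beside 2852 genes lower and 3437 higher of 18527. With YY1 knockdown 2 of 5 (PAX2 and LHX1) differed (33.1%), and with the double knockdown 3 of 5 (PAX8, LHX1 and HNF4G) did (46.0%). POU3F3 entered these tests through its ACHN counts only, and its fitted differences are not given.

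**Figure D5:**
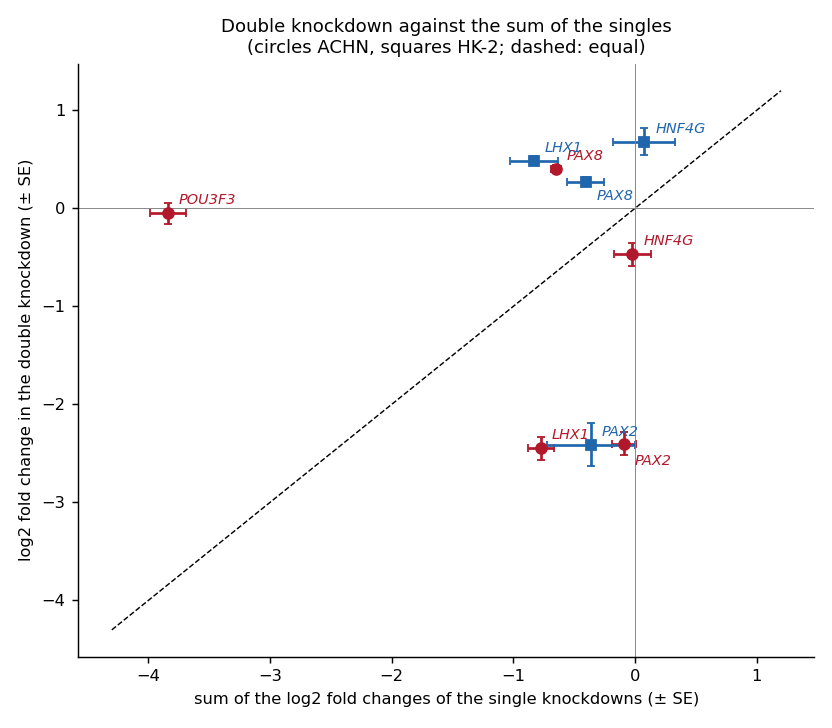
Log2 fold change in double-knockdown cells (y axis) against the summed log2 fold changes of both single knockdowns (x axis), each with SE, for the tested factors in ACHN (red circles) and HK-2 (blue squares); the dashed line marks equality. POU3F3 in ACHN cells lies far above the line, PAX8 lies above it in both lines, PAX2 lies below it in both lines, and LHX1 lies below it in ACHN and above it in HK-2 cells.

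Paralogs of the 8 factors were mostly silent: of 18 PAX, LHX, EMX and POU3F paralogs, 4 or 5 were tested in the ACHN and 6 in the HK-2 comparisons. In ACHN cells 3 were lower and 0 higher in shKDM5C, 0 and 2 in shYY1, and 2 and 1 in double-knockdown cells, and in HK-2 cells the counts were 0 and 1 (0 and 1 also without replicate 1 of shKDM5C), 2 and 0, and 3 and 1. The shares of all genes called in each comparison, given above, are the background for these counts and for those of the lists below. PAX6, an eye and endocrine factor, was at 7.40 ± 0.597 CPM in ACHN and 43.9 ± 3.40 CPM in HK-2 shNC cells. In ACHN cells it fell with KDM5C knockdown (log2 fold change -0.77, SE 0.166, adjusted p = 0.00031) and rose with YY1 knockdown (0.33, SE 0.112, adjusted p = 0.014). In HK-2 cells it rose with KDM5C knockdown (0.88, SE 0.127, adjusted p = 0.0252; 0.83 without replicate 1), fell with YY1 knockdown (-0.21, SE 0.078, adjusted p = 0.0491) and rose in double-knockdown cells (0.65, SE 0.0669, adjusted p = 1.22e-09). The signs of its single-knockdown fold changes were those of PAX2 in each line. LHX6 fell in ACHN shKDM5C (-1.43, SE 0.32, adjusted p = 0.000482) and double-knockdown cells (-2.62, SE 0.368, adjusted p = 5.25e-06), and LHX2 rose in ACHN shYY1 cells (0.50, SE 0.168, adjusted p = 0.0128) and fell in double-knockdown cells (-2.27, SE 0.262, adjusted p = 4.37e-07). LHX9 fell in HK-2 shYY1 (-2.22, SE 0.558, adjusted p = 0.00411) and double-knockdown cells (-1.94, SE 0.564, adjusted p = 0.0049), as PAX9 did in the latter (-1.85, SE 0.496, adjusted p = 0.00243).

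Among 36 other kidney transcription factors, 26 were tested in ACHN cells. Of these, 8 were lower and 4 higher with KDM5C knockdown, 5 lower and 6 higher with YY1 knockdown, and 8 lower and 9 higher in the double knockdown. Of all genes tested, 27.7% were lower and 28.9% higher, 24.5% and 24.2%, and 32.0% and 30.7% in the same order. FOXC2, a factor of podocyte and mesenchyme development, rose from 1.15 ± 0.242 CPM to 8.81 ± 1.16 CPM in shKDM5C (log2 fold change 2.91, SE 0.187, adjusted p = 9.65e-13) and 7.16 ± 0.861 CPM in double-knockdown cells (2.63, SE 0.201, adjusted p = 1.62e-09), and had 0 counts in HK-2 cells. IRX5, an Iroquois homeobox factor, fell in shYY1 (-3.29, SE 0.47, adjusted p = 3.9e-07) and rose in double-knockdown ACHN cells (2.18, SE 0.206, adjusted p = 3.11e-08). Its level was 1.28 ± 0.262 CPM in shNC, 0.126 ± 0.0288 CPM in shYY1 and 5.77 ± 0.64 CPM in double-knockdown cells. FOXC1 (1.36, SE 0.131, adjusted p = 1.09e-10) and LMX1B (1.01, SE 0.182, adjusted p = 2.01e-05) rose in shYY1 cells. LMX1B fell in shKDM5C cells (-1.18, SE 0.25, adjusted p = 0.000255). ESRRG fell with both single knockdowns (-1.13 and -0.81, SE 0.229 and 0.232, adjusted p = 0.000153 and 0.00399). SIX2, a marker of nephron progenitors (-1.92, SE 0.239, adjusted p = 1.17e-06), and TFCP2L1, a collecting duct factor (-2.03, SE 0.294, adjusted p = 7.72e-06), fell in double-knockdown cells. The median log2 fold change of this list was 0.01, 0.01 and -0.02 in the 3 ACHN comparisons, beside -0.01 over all genes in each.

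In HK-2 cells 23 of the 36 were tested, with 0 lower and 1 higher in shKDM5C (3 lower and 5 higher of 24 without replicate 1), 10 lower and 2 higher in shYY1, and 8 lower and 7 higher in double-knockdown cells. Of all genes tested, 0.656% were lower and 0.668% higher in shKDM5C, 14.7% and 14.3% in shYY1, and 24.3% and 25.5% in double-knockdown cells. Without replicate 1 of shKDM5C, 1808 of 16642 genes were lower and 1910 higher. SALL1, a zinc finger factor of the metanephric mesenchyme, rose from 80.8 ± 4.81 CPM to 179 ± 6.18 CPM in shKDM5C (log2 fold change 1.16, SE 0.107, adjusted p = 0.00762; 1.17 without replicate 1) and 169 ± 3.66 CPM in double-knockdown cells (1.08, SE 0.0522, adjusted p = 3.49e-17). TFCP2L1 fell in shYY1 (-2.10, SE 0.463, adjusted p = 0.00142) and double-knockdown cells (-3.88, SE 0.681, adjusted p = 1.71e-05). Its level was 1.53 ± 0.0833 CPM in shNC, 0.354 ± 0.159 CPM in shYY1 and 0.0972 ± 0.168 CPM, near 0, in double-knockdown cells. TCF21 fell in shYY1 cells (-1.14, SE 0.427, adjusted p = 0.0489) and OSR2 fell in double-knockdown cells (-1.56, SE 0.233, adjusted p = 1.31e-06). MECOM rose in shYY1 cells (0.99, SE 0.239, adjusted p = 0.00307) and ESRRG rose in double-knockdown cells (1.07, SE 0.374, adjusted p = 0.0175). The median log2 fold change of the list was 0.07, -0.20 and -0.28 in the 3 HK-2 comparisons, beside 0.00096, 0.01 and -0.00265 over all genes.

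Known target genes of the factors were also followed. CDH16, the kidney cadherin and a PAX8 target, fell in ACHN cells with each knockdown, from 24.5 ± 0.967 CPM to 10.0 ± 1.15 CPM in shKDM5C (log2 fold change -1.31, SE 0.0886, adjusted p = 2.82e-12), 16.1 ± 1.27 CPM in shYY1 (-0.63, SE 0.0738, adjusted p = 9.82e-09) and 7.56 ± 0.597 CPM in double-knockdown cells (-1.70, SE 0.0971, adjusted p = 2.52e-11). CDH16 was thus lowest in the ACHN group in which PAX8 was highest and PAX2 lowest. In HK-2 cells CDH16 fell in shYY1 (-0.65, SE 0.0669, adjusted p = 1.48e-07) and double-knockdown cells (-0.30, SE 0.0626, adjusted p = 0.000177). RET, the receptor of the ureteric bud and a target of PAX2 and PAX8, fell in ACHN shKDM5C (-2.19, SE 0.426, adjusted p = 9.54e-05) and double-knockdown cells (-4.53, SE 0.668, adjusted p = 9.38e-06). Its level was 1.26 ± 0.305 CPM in shNC, 0.272 ± 0.161 CPM in shKDM5C and 0.0513 ± 0.0888 CPM, near 0, in double-knockdown cells. WNT4, a signal of the forming nephron that is in the PAX2 and PAX8 and the WT1 lists, rose in ACHN shYY1 (1.07, SE 0.369, adjusted p = 0.0161) and double-knockdown cells (1.24, SE 0.398, adjusted p = 0.0113), and GDNF, the ligand of RET, rose in HK-2 shYY1 cells (2.59, SE 0.538, adjusted p = 0.000791). Of the 8 genes in the PAX2 and PAX8 list, between 2 and 4 were tested in a comparison. In ACHN cells 2 were lower and 0 higher in shKDM5C, 1 and 1 in shYY1 and 2 and 1 in double-knockdown cells, and in HK-2 cells the counts were 0 and 0, 1 and 1, and 1 and 1. Without replicate 1 of HK-2 shKDM5C the first was 0 and 1, with CDH16 higher (0.49, SE 0.0596, adjusted p = 9.02e-07). The median log2 fold changes of the list were -1.75, -0.29 and -1.70 in ACHN and 0.25, 0.18 and 0.20 in HK-2 cells. They rest on only 2, 3 and 3 tested genes in ACHN and 3, 4 and 4 in HK-2 cells. Over all genes the medians were -0.00696, -0.00738 and -0.00573 in ACHN and 0.00096, 0.00506 and -0.00265 in HK-2 cells.

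Of 13 HNF4A targets, 2 passed the filter in each comparison, and SERPINA1 was the 1 called in each but HK-2 shKDM5C, where 0 were called. Without replicate 1 SERPINA1 rose there (1.09, SE 0.0729, adjusted p = 4.33e-11). SERPINA1 (alpha-1 antitrypsin) was at 13.1 ± 1.33 CPM in ACHN and 37.8 ± 3.31 CPM in HK-2 shNC cells. It fell in ACHN shKDM5C (-1.73, SE 0.129, adjusted p = 1.81e-11), shYY1 (-2.13, SE 0.133, adjusted p = 1.99e-15) and double-knockdown cells (-0.68, SE 0.138, adjusted p = 0.000301). It fell in HK-2 shYY1 cells (-0.345, SE 0.0839, adjusted p = 0.00317) and rose in HK-2 double-knockdown cells (1.39, SE 0.0652, adjusted p = 1.63e-17). Of 7 WT1 targets, between 2 and 4 were tested. In ACHN cells 1 was lower and 0 higher in shKDM5C, 0 and 2 in shYY1 and 0 and 3 in double-knockdown cells, and in HK-2 cells the counts were 1 and 0, 1 and 0, and 2 and 1. Without replicate 1 of HK-2 shKDM5C the first was 2 and 1, with PODXL lower (-0.73, SE 0.148, adjusted p = 0.000617) and SPRY1 higher (1.06, SE 0.274, adjusted p = 0.00614). AREG, a ligand of the EGF receptor, rose in ACHN double-knockdown cells (2.35, SE 0.143, adjusted p = 6.46e-11), as did SPRY1, an inhibitor of receptor tyrosine kinase signalling (2.68, SE 0.32, adjusted p = 6.69e-07). AREG fell in HK-2 shKDM5C (-1.86, SE 0.234, adjusted p = 0.0172; -1.64 without replicate 1) and double-knockdown cells (-0.26, SE 0.0761, adjusted p = 0.0054), where SPRY1 rose (0.78, SE 0.268, adjusted p = 0.0167). PODXL, a podocyte sialomucin, fell in ACHN shKDM5C (-0.35, SE 0.0558, adjusted p = 8.53e-06), HK-2 shYY1 (-0.50, SE 0.152, adjusted p = 0.0154) and HK-2 double-knockdown cells (-0.46, SE 0.166, adjusted p = 0.0226), and rose in ACHN shYY1 cells (0.29, SE 0.0517, adjusted p = 1.72e-05).

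Finally, the genes whose levels followed each factor most closely over the 12 libraries of a line were listed by Pearson correlation of log2(CPM + 0.5), as a description in which the libraries of a group share their treatment. In ACHN cells these were BLVRA, EPPK1 and ETS2 for PAX2 (r between 0.994 and 0.995) and CORO2B, H6PD and NATD1 for PAX8 (0.983 to 0.993). They were RGS5, EMP2 and UACA for LHX1 (0.994 each), B4GALNT4 and TPD52 for HNF4G (0.987 each) and TLR4, PRKAA2 and ABHD12 for POU3F3 (0.982 to 0.989). TLR4, the closest to POU3F3, was at 7.99 CPM in shNC, 5.16 CPM in shKDM5C, 2.20 CPM in shYY1 and 8.36 CPM in double-knockdown cells, and EPPK1, close to PAX2, was at 1.31, 0.418, 3.64 and 0.175 CPM in the same order. In HK-2 cells they were TM7SF3 and ARHGAP6 for PAX2 (0.962 to 0.981), ABTB2, PPP1R26 and EHD1 for PAX8 (0.973 to 0.978), SEMA3B, PMEPA1 and PIK3IP1 for LHX1 (0.984 to 0.991) and TMTC2, PKD2 and SENP7 for HNF4G (0.926 to 0.965).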

How the data were processed

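Total RNA of 24 cell line samples was sequenced as 150 bp paired-end libraries made with the NEBNext Ultra kit. The authors aligned reads to hg38 with HISAT2 (2.0.5), and featureCounts assigned read pairs to Ensembl release 84 genes; the submitters' processing notes give version 1.5.0-p3 and the headers of the deposited files 2.0.1, run on pairs without a setting for strand. The deposited values are raw counts without normalization, 1 library per file. Because reads carry no molecular identifiers, intervals and floors describe counting error alone.

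Symbols were matched for 56558 of the 60675 genes. Groups came from the labels. In 12 comparisons, edgeR 4.0.16 (R 4.3.3) was run on the libraries of the groups compared, with TMM scaling, its filter on low counts, two-sided quasi-likelihood F tests and Benjamini-Hochberg adjustment over all genes tested. Interactions used the 12 libraries of a line, and differences between lines the shNC and knockdown libraries of both. Standard errors were derived from the F statistic, and 95% intervals of log2 values from the normal approximation. With 3 libraries a group, an exact permutation test of a single gene cannot reach a p under 0.1. CPM values used TMM factors over all 24 libraries. The fits were tested on simulated counts. Alternatives were DESeq2 1.42.0, scaling by RLE size factors or by total counts, no filter, a filter of at least 10 counts in each library of a group, fits on every group, a block for the replicate number, and each library left out.

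The 8 genes, the gene lists (paralogs, other kidney transcription factors, targets, cell type markers) and the tests were chosen with earlier results of these data known. Named besides these genes are KDM5C and YY1, genes within 10 kb that passed the filter, up to 2 lower and 2 higher called genes of each list and comparison with at least 1 CPM in the higher group, and the 3 genes most correlated with each factor. Some genes that this rule names are not reported here. Single marker genes, HNF4A-AS1 and EMX2OS were named after their values were seen.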

Additional observations from a re-analysis of the deposited data

Results flagged for a closer look

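The effect of a knockdown on a factor differed between ACHN and HK-2 cells, by the test of the difference itself (edgeR, adjusted p under 0.05), in 6 cases. With KDM5C knockdown 1 of 5 factors tested differed, beside 11.9% of all genes. With YY1 knockdown 2 of 5 did, beside 33.1%, and with the double knockdown 3 of 5, beside 46.0%. For PAX2 the log2 difference (ACHN minus HK-2) was -3.10 with KDM5C knockdown (adjusted p = 0.00017) and 3.39 with YY1 knockdown (adjusted p = 1.34e-15), each with fold changes of opposite sign in the lines and libraries that did not overlap the shNC libraries of their line. For LHX1 it was -0.43 with YY1 knockdown (adjusted p = 0.000434) and -2.92 with the double knockdown (adjusted p = 5.68e-19). For HNF4G and PAX8 with the double knockdown it was -1.13 (adjusted p = 1.07e-05) and 0.15 (adjusted p = 0.0432). The PAX8 call was lost with RLE, DESeq2, no filter or all groups in the fit, and in most fits that left out a library. KDM5C and YY1 were also reduced to different degrees in the lines. In shKDM5C cells the log2 fold change of KDM5C was -0.73 in ACHN and -1.74 in HK-2 cells, replicate 1 of HK-2 shKDM5C included. In shYY1 cells that of YY1 was -0.88 and -1.70. In double-knockdown cells that of KDM5C was -0.80 and -1.49, and that of YY1 -0.51 and -1.49. The part of these degrees in the differences was not tested.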

How the results depend on the processing

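Of 362 values of single factors under alternatives other than leaving out a library, 339 kept their direction and their side of the threshold. In HK-2 shKDM5C cells the number of factors called was 0 in the reported fit, 2 with DESeq2, 2 without the filter and 2 with all groups in the fit, and 0 to 3 when a library was left out. In HK-2 shYY1 cells it was 1 in the reported fit, 2 with total counts and 2 without the filter, and 1 to 2 when a library was left out. With all groups in the fit, 2 factors differed between lines in their response to KDM5C knockdown (1 to 3 when a library was left out) and 1 in its response to YY1 knockdown. Some values close to 0 changed sign. The difference between lines in the PAX8 response to YY1 knockdown was -0.000893 in the reported fit, 0.013 with RLE, 0.00822 with total counts, 0.0131 with DESeq2, 0.00889 with all groups in the fit, 0.000122 with at least 10 counts and -0.0533 to 0.0671 without a library. The difference in the PAX2 response to the double knockdown was -0.0197 without the filter and -0.192 to 0.19 without a library. Without a library, POU3F3 in ACHN double-knockdown cells ranged from -0.124 to 0.0815 and HNF4G in HK-2 shYY1 cells from -0.13 to 0.0568. The PAX8 difference between lines in the double knockdown lost its call with RLE (0.122), DESeq2 (0.122), no filter (0.102) and all groups (0.137). Over all genes in HK-2 shKDM5C cells, 106 were lower and 108 higher in the reported fit, 284 and 321 with DESeq2, 592 and 748 with all groups, 198 and 207 without the filter, 0 and 0 with the block, and 1808 and 1910 without replicate 1 of that group; without any 1 of the other libraries there were at most 20 and 28. With all groups in the fit, HK-2 shYY1 calls were 557 lower and 370 higher (2366 and 2305 reported) and HK-2 double-knockdown calls 1922 and 1992 (3945 and 4128 reported). For the difference between lines in the response to KDM5C knockdown, 1109 genes were lower and 1031 higher in the reported fit, 1906 and 2073 with all groups, 528 and 429 with the block and 2852 and 3437 without replicate 1 of HK-2 shKDM5C. For that to YY1 knockdown, 2978 and 2991 became 1308 and 1437 with all groups. The HK-2 interaction went from 752 and 890 to 2415 and 2650 without that replicate. The causes were not tested. The labels do not say whether same-numbered libraries were paired. Their deviations from the group means correlated at -0.117 to 0.0437, so no pairing was seen in the counts. With the replicate number as a block, the PAX8 difference between lines in the response to YY1 knockdown was 0.00089, and no other value of a factor changed direction or call.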
